A study of Homo sapiens with 24 samples.

Results

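The genes of the cytosolic translation initiation factors (eIF) and elongation factors (eEF) were examined in peak lists of 3 subunits of SWI/SNF, a chromatin remodelling complex. A peak belonged to the group when the nearest transcription start site (TSS) in the deposited annotation had a symbol beginning with EIF1 to EIF6, EEF1 or EEF2, and symbols ending in P and a number were left out. This rule took 110 of 51504 BRG1 peaks, 68 of 22157 BRM peaks and 44 of 6489 SNF5 peaks, which was 222 of 80150 peaks in all. They named 57 of the 22471 symbols in the lists. RefSeq (GRCh38.p14, the same assembly as hg38) holds 67 protein-coding genes that meet the rule, of 20037 on the numbered chromosomes, X and Y. Of these, 54 encode initiation or elongation factors proper, or paralogs of them, and 13 encode kinases, methyltransferases and other proteins that the name of the group covers only loosely. The rule also removed 25 pseudogene symbols, for which 42 BRG1, 10 BRM and 0 SNF5 peaks were named, and the genes of the eIF4E inhibitors EIF4EBP1, EIF4EBP2 and EIF4EBP3, which are given separately.

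The samples were RWPE1 cells, an established line of benign human prostate epithelium, that carried the long noncoding RNA SCHLAP1 from a lentivirus and were kept under 2.5 ug/mL blasticidin. BRG1, BRM and SNF5 were profiled by chromatin immunoprecipitation and sequencing on MNase-cut chromatin fixed in 0.3% formaldehyde, with 2 samples and 1 peak list for each subunit. Each complex holds either BRG1 or BRM as its motor, an ATPase. SNF5 is a further subunit of SWI/SNF. LACZ control cells were profiled for histone marks and sonicated input only, neither of which was analysed here. So no value below compares SCHLAP1 cells with control cells. The lists give positions, widths in bp, places and distances without scores or read counts, so depth cannot be given, replicates cannot be compared and no difference was tested. A gene without a peak is a gene without a called site, not one shown to lack the protein. Of 8 basal epithelial marker genes, 7 were named by BRG1, 7 by BRM and 3 by SNF5. BRG1 named 2 of 5 luminal, 3 of 4 blood, 2 of 3 endothelial and 0 of 2 liver marker genes, and BRM and SNF5 named 0 of each. Over all protein-coding genes the shares were 63.5% for BRG1, 49.6% for BRM and 19.7% for SNF5. The BRG1 counts for blood and endothelial genes lay near its share.

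Translation of most cellular mRNAs begins when eIF4F binds the cap and the small ribosomal subunit arrives with eIF3, eIF1, eIF1A, eIF5 and the eIF2 complex that carries the initiator tRNA. The nucleotide exchange factor eIF2B recharges eIF2, and stress kinases block that step by phosphorylating eIF2. The factors eEF1A, which delivers tRNAs, and eEF2, which moves the ribosome along, then drive elongation. Many of these mRNAs begin with a C followed by a pyrimidine tract (the TOP motif), which places them under control of mTOR, and several of the genes, EIF4E among them, are known targets of MYC, which binds the E-box.

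The sequences around 7 starts are shown because they carry the main contrast of the lists: the first 3 lay wholly inside peaks of all 3 subunits, the next 3 lay wholly inside BRG1 and BRM peaks with SNF5 beside the start or over part of the window, and at the last no subunit had a peak. Each window runs 5′ to 3′ along the gene from 100 bases before to 30 bases from the RefSeq start (GRCh38.p14). Capitals mark the searched motifs and a C followed by at least 4 pyrimidines that begins within 10 bases of the start.
EEF1A1, chr6:73521003-73521132, minus strand: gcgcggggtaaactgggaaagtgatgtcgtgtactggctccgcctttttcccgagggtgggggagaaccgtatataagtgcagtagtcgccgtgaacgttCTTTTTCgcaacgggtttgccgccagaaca
EEF2, chr19:3985434-3985563, minus strand: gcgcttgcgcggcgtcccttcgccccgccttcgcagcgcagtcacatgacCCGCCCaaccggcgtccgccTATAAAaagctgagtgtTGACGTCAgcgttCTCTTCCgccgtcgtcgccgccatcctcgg
EIF1, chr17:41688785-41688914, plus strand: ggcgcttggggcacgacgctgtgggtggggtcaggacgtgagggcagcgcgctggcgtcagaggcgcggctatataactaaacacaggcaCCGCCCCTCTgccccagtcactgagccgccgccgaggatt
EIF4A2, chr3:186783477-186783606, plus strand: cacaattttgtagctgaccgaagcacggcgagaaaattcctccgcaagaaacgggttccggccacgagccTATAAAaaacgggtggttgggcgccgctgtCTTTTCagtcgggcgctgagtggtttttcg
EIF4E, chr4:98929104-98929233, minus strand: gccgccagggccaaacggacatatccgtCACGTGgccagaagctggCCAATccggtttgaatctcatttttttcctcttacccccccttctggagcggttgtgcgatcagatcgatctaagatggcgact
EIF2S1, chr14:67360228-67360357, plus strand: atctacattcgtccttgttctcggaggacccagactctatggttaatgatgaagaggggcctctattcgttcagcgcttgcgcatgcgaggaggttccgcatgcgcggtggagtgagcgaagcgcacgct
EIF4E3, chr3:71754744-71754873, minus strand: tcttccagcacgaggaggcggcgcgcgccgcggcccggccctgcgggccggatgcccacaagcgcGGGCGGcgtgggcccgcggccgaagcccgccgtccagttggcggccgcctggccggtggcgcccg
In EEF1A1, EEF2 and EIF4A2 a pyrimidine tract began exactly at the annotated start. EEF2 and EIF4A2 also held TATAAA from 30 bases before it. EIF4E held CACGTG, the E-box. None of the searched motifs lay in the EIF2S1 window, which says only that these letters are not there. The 130 bases of EIF4E3, a cap-binding paralog of EIF4E, met no peak of any list.

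Most of the genes were named by BRG1 and BRM, and a large minority by SNF5, an order that is also the order of the lengths of the lists. BRG1 peaks named 52 of the 67 genes (77.6%, exact 95% binomial interval 65.8 to 86.9), against 63.5% of all protein-coding genes. BRM peaks named 45 (67.2%, 54.6 to 78.2), against 49.6% of all genes. SNF5 peaks named 29 (43.3%, 31.2 to 56.0), against 19.7% of all genes. All 3 lists named 26 (38.8%, 27.1 to 51.5), against 17.9% of all genes. No list named 11 (16.4%), against 33.6% of all genes. BRG1 and BRM without SNF5 named 16, BRG1 alone 10, BRM and SNF5 without BRG1 2, BRM alone 1 and SNF5 alone 1. For these combinations the shares over all genes were not computed. The intervals treat genes as independent trials, which they are not, and cover counting error only. Among the 6489 widest peaks of each list, BRG1 named 28.4% of the group and 20.6% of all genes, BRM 46.3% and 22.6%, and SNF5 43.3% and 19.7%. At this equal length BRG1 named the fewest genes of the group. Among the wider 50% of SNF5 peaks 28.4% of the group and 11.4% of all genes were named.

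**Figure D1:**
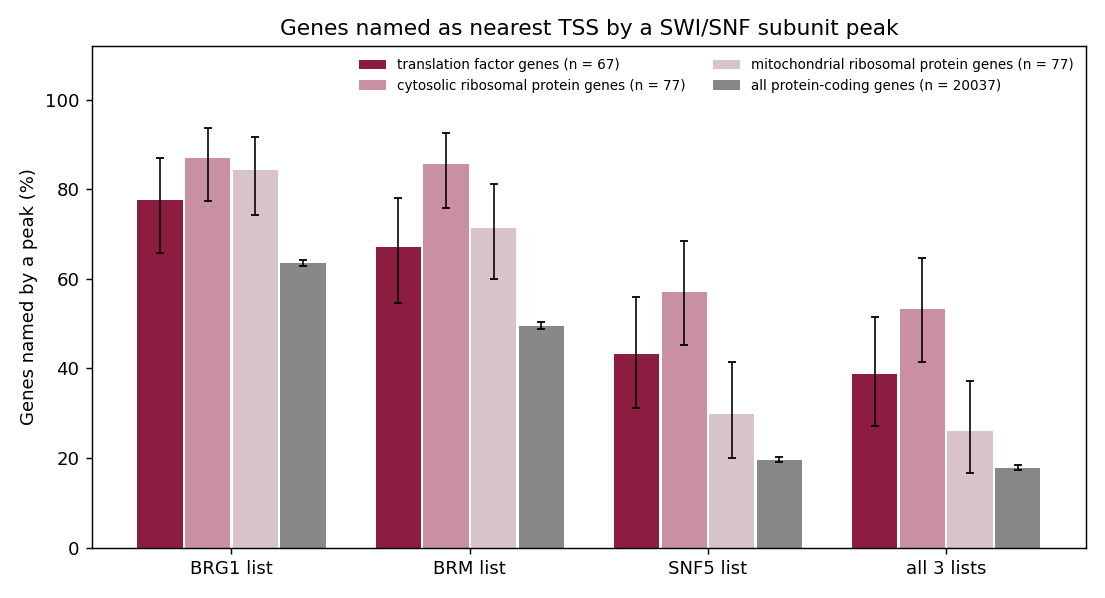
Percentage of genes (y axis) named as nearest TSS by at least 1 peak of the BRG1, BRM or SNF5 list or of all 3 (x axis), for translation factor genes, both sets of ribosomal protein genes and all protein-coding genes, with exact 95% binomial intervals as error bars. Translation factor genes stood at 43.3% in the SNF5 list, between cytosolic ribosomal protein genes at 57.1% and mitochondrial ribosomal protein genes at 29.9%, and all protein-coding genes stood at 19.7%.

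The ribosomal protein genes, which share the translation machinery, gave the same order of lists, which is the order of list length. SNF5 named 43.3% of the translation factor genes, 57.1% of 77 cytosolic ribosomal protein genes (45.4 to 68.4) and 29.9% of 77 mitochondrial ribosomal protein genes (upper limit 41.4). The interval of the translation factor genes overlapped both others. BRM named 67.2%, 85.7% and 71.4% of the same sets, and BRG1 77.6%, 87.0% and 84.4%. Of these differences between sets none was tested.

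The eIF3 complex, the scaffold that brings the small subunit to the mRNA, was named in part. BRG1 named 10, BRM 8 and SNF5 5 of its 14 genes, against 63.5%, 49.6% and 19.7% of all protein-coding genes. EIF3A, the largest subunit, had the widest BRG1 peak of the whole group, 3392 bp on chromosome 10 (119078261 to 119081652), and it held a BRM peak (1357 bp) as well as SNF5 peaks of 196 and 156 bp. EIF3M had a BRG1 peak of 2196 bp, a BRM peak of 1024 bp and an SNF5 peak of 251 bp. At EIF3J, a loosely attached subunit, the widths were 2102, 614 and 158 bp, and a further BRM peak of 661 bp was named for the antisense RNA gene EIF3J-AS1. EIF3E, also known as INT6, had 1796 bp of BRG1, 528 bp of BRM and 182 bp of SNF5, and EIF3F had 873, 341 and 151 bp. So the subunits named by all 3 lists spanned a wide range of BRG1 widths. EIF3H, which lies on chromosome 8, had 4 BRG1 peaks, 3 of them in introns, and neither BRM nor SNF5. EIF3K had 5 BRG1 peaks and 1 BRM peak, which lay 5070 bp from the TSS. EIF3D and EIF3L had 1 narrow BRG1 promoter peak each (365 and 457 bp), and EIF3B had BRG1 (700 bp) and BRM (343 bp). EIF3G, a subunit that helps scanning, was the only protein-coding gene of the group named by BRM alone, with a promoter peak of 421 bp that met no BRG1 peak. EIF3C, EIF3CL and EIF3I were named by no list, and EIF3C and EIF3CL are near-identical copies, and the part of reads that match both was not tested.

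Of the eIF4 genes, which encode the cap-binding complex and its helpers, BRG1 named 11, BRM 10 and SNF5 8 of 12. The shares of all protein-coding genes were 63.5%, 49.6% and 19.7%. EIF4E, the cap-binding protein, had a BRG1 peak of 2321 bp across its start (chromosome 4, 98927889 to 98930209), a BRM peak of 1547 bp and an SNF5 peak of 273 bp upstream of the start. EIF4A1, the helicase of the complex, had 3 SNF5 promoter peaks (328, 225 and 199 bp) beside 2 BRG1 peaks, the wider of 1447 bp, and 2 BRM peaks, the wider of 1373 bp. Its paralog EIF4A2 had a BRG1 peak of 2251 bp, a BRM peak (1570 bp) and SNF5 peaks of 318 and 281 bp. Both helicase genes were thus named by several SNF5 peaks. A further SNF5 peak of 345 bp in EIF4A2, 427 bp downstream of its start, was named for AC112907.3. EIF4A3, the helicase of the exon junction complex, had 902 bp of BRG1, 579 bp of BRM and 170 bp of SNF5. The scaffold gene EIF4G1 had promoter peaks of 1227 and 933 bp (BRG1) and of 1587 and 885 bp (BRM), and 1 SNF5 peak of 222 bp. EIF4G2, which encodes a scaffold used without the cap-binding protein, had 2195 bp of BRG1 and 1801 bp of BRM and no SNF5 peak. EIF4G3 had BRG1 at 1686 bp, BRM at 310 bp and SNF5 at 231 bp. The helper EIF4H had widths of 1638, 1177 and 247 bp, and EIF4E2, a cap-binding repressor, 1225, 952 and 276 bp. EIF4B, the other helper, had 4 BRG1 peaks of at most 841 bp, a BRM peak of 349 bp and no SNF5. EIF4E3 had a single BRG1 peak of 464 bp, in an intron 40248 bp from the TSS. EIF4E1B was named by no list, though a BRG1 peak of 517 bp over its start was named for SNCB.

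**Figure D2:**
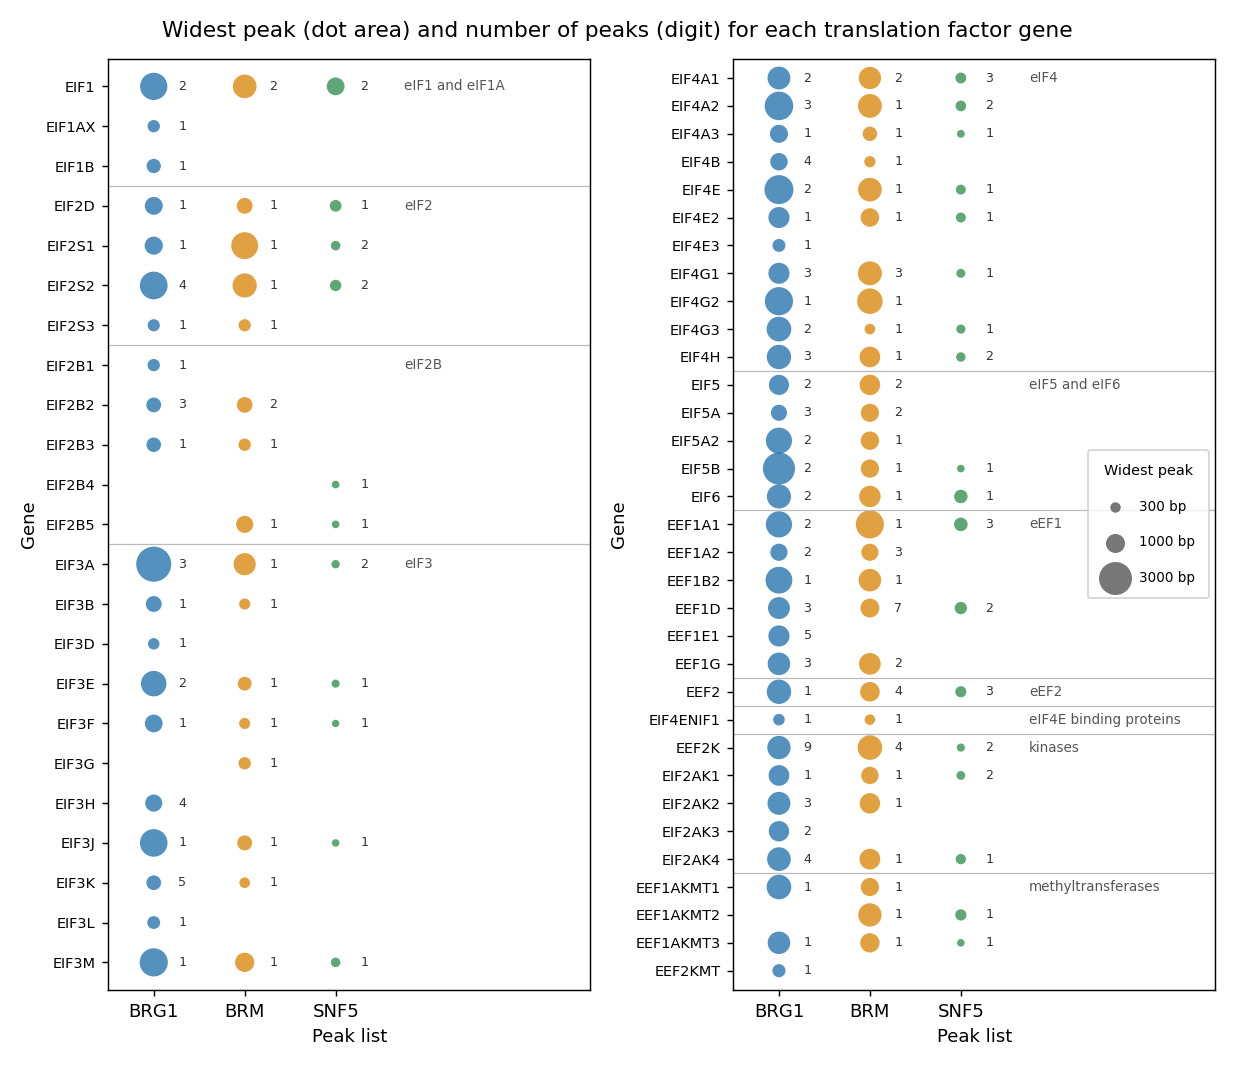
Each row is a protein-coding gene named by at least 1 list, ordered by complex or role; columns are the BRG1, BRM and SNF5 lists, dot area is the width of the widest peak in bp and the digit is the number of peaks. EIF3A has the widest BRG1 peak (3392 bp), EEF2K has the most BRG1 peaks (9) and EEF1D the most BRM peaks (7).

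Among the initiation genes outside eIF3 and eIF4, all 3 lists named 3 of 6 genes listed with eIF2 and 0 of 5 of eIF2B. Of all protein-coding genes they named 17.9%, and 5 genes are too few to set 0 apart from that share. Each eIF2B gene was named by at least 1 list, while EIF2A and EIF2S3B were named by none. EIF2S2, the beta subunit of eIF2, had a BRG1 promoter peak of 2122 bp and 3 intron peaks, a BRM peak (1615 bp) and SNF5 peaks of 360 and 343 bp. EIF2S1, the alpha subunit that stress kinases phosphorylate, had BRM (1997 bp) and SNF5 (252 and 157 bp) at the promoter, while its named BRG1 peak (910 bp) lay in an exon. EIF2S3, the gamma subunit, had BRG1 (409 bp) and BRM (415 bp) alone. EIF2D, which encodes a factor that can place initiator tRNA without eIF2, had widths of 886, 693 and 383 bp. Of eIF2B, EIF2B1 had a BRG1 peak of 420 bp, EIF2B2 3 BRG1 and 2 BRM peaks and EIF2B3 BRG1 (584 bp) and BRM (421 bp). A BRM peak of 951 bp over the start of EIF2B1 was named for GTF2H3. By position, all 3 lists had a peak within 1000 bp of the starts of EIF2B4 and EIF2B5, where the BRG1 peaks (1846 and 1101 bp) were named for SNX17 and AC131235.3. EIF2B4 was named only by an SNF5 peak of 164 bp, and EIF2B5 by BRM (805 bp) and SNF5 (162 bp). EIF1, which guards start codon choice, had the widest SNF5 peak of the group, 879 bp, inside a BRM peak of 1545 bp and a BRG1 peak of 2050 bp (chromosome 17, 41687874 to 41689923). Its paralog EIF1B and EIF1AX, which encodes eIF1A, had 1 BRG1 peak each (562 and 422 bp) and no other. EIF5B, the subunit-joining GTPase, had a BRG1 peak of 2843 bp, the second widest of the group, with 921 bp of BRM and 160 bp of SNF5. EIF6, which keeps free large subunits from joining, had 1605, 1268 and 502 bp. EIF5, EIF5A and EIF5A2 were named by BRG1 and BRM and not by SNF5.

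Of the elongation factors, the genes of eEF1A1 and eEF2 were among the richest in SNF5 peaks. EEF1A1 had a BRG1 peak of 1895 bp, the widest BRM peak of the group (2184 bp) and 3 SNF5 peaks of 510, 288 and 170 bp. EEF2 had 1 BRG1 peak (1640 bp), 4 BRM peaks (1058 bp the widest) and 3 SNF5 peaks of 341, 198 and 160 bp, of which that of 198 bp lay 1318 bp from the TSS and met no BRG1 peak. Together with EIF4A1 these were the genes named by 3 SNF5 peaks, the most in the group by name. EEF1D, a subunit of the eEF1B exchange factor, had 3 BRG1, 7 BRM and 2 SNF5 peaks. EEF1B2 had 1985 bp of BRG1 and 1407 bp of BRM, EEF1G 3 and 2 peaks, and neither had SNF5. EEF1A2, the form of muscle and nerve, had a BRG1 promoter peak of 818 bp and a BRM one of 755 bp. EEF1E1, a protein of the tRNA synthetase complex, had 5 BRG1 peaks and nothing else. EEF1A1 has many processed copies in the genome, and the part of reads that match several of them was not tested.

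The 5 kinases that regulate translation were all named by BRG1, 4 by BRM and 3 by SNF5. The shares of all protein-coding genes were 63.5%, 49.6% and 19.7%, and with 5 genes no difference from them was tested. EEF2K, which phosphorylates eEF2 and halts elongation, had the most BRG1 peaks of the group, 9, of which 2 lay at promoters, with 4 BRM peaks. Its SNF5 peaks, of 183 and 182 bp, were distal, 4412 and 10498 bp from the TSS. EIF2AK4 (GCN2, the sensor of amino acid shortage) had a BRG1 peak of 1555 bp, a BRM peak of 1190 bp and an SNF5 peak of 295 bp. EIF2AK1 (HRI, the sensor of haem) had 1182 bp, 840 bp and SNF5 peaks of 219 and 178 bp. EIF2AK2 (PKR, the sensor of double-stranded RNA) had BRG1 (1455 bp) and BRM (1154 bp), and EIF2AK3 (PERK, the sensor of the endoplasmic reticulum) had 2 BRG1 intron peaks by name. Of the methyltransferases, EEF1AKMT3 was named by all lists (1402, 1032 and 157 bp), EEF1AKMT2 by BRM (1506 bp) and SNF5 (354 bp), EEF1AKMT1 by BRG1 (1672 bp) and BRM (917 bp) and EEF2KMT by BRG1 (475 bp). A BRG1 peak of 2193 bp over the start of EEF1AKMT2 was named for AC068896.1. EIF4ENIF1, which carries eIF4E into the nucleus, had narrow peaks of BRG1 (369 bp) and BRM (310 bp).

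A gene can go unnamed although a peak covers its start, since a peak names only the nearest TSS. RefSeq starts were at hand for 54 of the 67 genes. A BRG1 peak lay within 1000 bp of a start in 49 of them (90.7%, 79.7 to 96.9), against 65.1% of 15843 protein-coding genes. BRM lay there in 43 (79.6%, 66.5 to 89.4), against 54.3%, and SNF5 in 27 (50%, 36.1 to 63.9), against 22.1%. The 15 genes that BRG1 did not name show what this changes. In 9 of them a BRG1 peak lay within 1000 bp of the start and carried a neighbour's name. At EIF2A the BRG1 peak (2555 bp), the BRM peak (1410 bp) and the SNF5 peak (467 bp) were all named for SERP1. At EIF1AD they were named for BANF1, at EIF2B4 the BRG1 (1846 bp) and BRM (1614 bp) peaks for SNX17, at EIF3I those of 1170 and 617 bp for TMEM234, and at EEF1AKMT4, which shares its start with the read-through gene EEF1AKMT4-ECE2, that of 1758 bp for ALG3. The start of EIF2S1, whose sequence is shown above, lay inside a BRG1 peak of 3597 bp named for ATP6V1D (chromosome 14, 67357690 to 67361286), wider than any peak that carried a name of the group. At EIF2AK3 a BRG1 peak of 1350 bp, a BRM peak of 839 bp and an SNF5 peak of 151 bp near the start were named for AC062029.1. No peak of any list lay within 1000 bp of the starts of EIF2S3B, EIF3C, EIF4E3 and EIF5AL1 and of 1 further gene. EIF2S3B and EIF5AL1 are close copies of EIF2S3 and EIF5A, where reads are hard to place, and the part of this in the missing peaks was not tested.

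**Figure D3:**
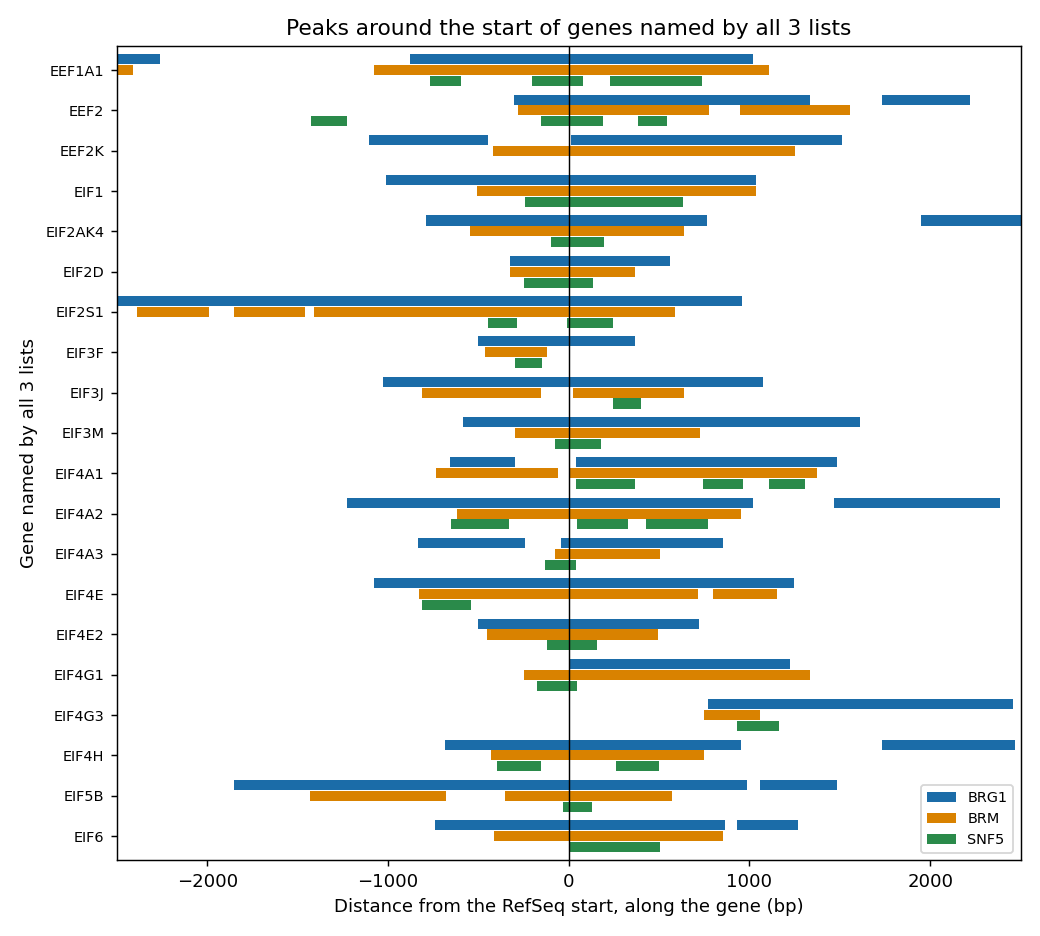
Peaks of BRG1, BRM and SNF5, whichever gene they name, as bars by distance in bp from the RefSeq start along the direction of the gene (x axis), for the 20 genes named by all 3 lists that have a RefSeq start (y axis). Where a gene has several starts, that nearest the widest BRG1 peak is used; the EEF1A1 start lies inside BRG1, BRM and SNF5 peaks, with SNF5 peaks of 170 and 510 bp on its upstream and downstream sides.

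The peaks lay mostly at promoters, which the deposited annotation takes as under 1000 bp from a TSS. Promoters held 66 of 110 BRG1 peaks (60%, 50.2 to 69.2), against 37.3% of all BRG1 peaks. They held 55 of 68 BRM peaks (80.9%, 69.5 to 89.4), against 62.8%, and 40 of 44 SNF5 peaks (90.9%, 78.3 to 97.5), against 81.3%. Introns held 26 BRG1 peaks (23.6%), against 37.7% of all BRG1 peaks. They held 3 BRM peaks (4.41%), against 19.6%, and 0 SNF5 peaks, against 7.98%. For promoter peaks within 1000 bp of a RefSeq start, the middle lay at a median of 86.5 bp downstream of it for 46 BRG1 peaks, 61 bp for 40 BRM peaks and 17.8 bp for 28 SNF5 peaks. The middle was downstream in 29, 28 and 15 of them. The spread was wide, from -952 to 762 bp for BRG1 and from -936.5 to 854 bp for SNF5, and SNF5 peaks lay on either side of the start.

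SNF5 often had several peaks at 1 gene of the group. Of the 29 genes with SNF5 peaks, 12 (41.4%) had at least 2, against 21.7% of all 4879 symbols that SNF5 named. The genes with 2 were EEF1D, EEF2K, EIF1, EIF2AK1, EIF2S1, EIF2S2, EIF3A, EIF4A2 and EIF4H. For BRM the share was 23.9% of 46, against 32.3% of all symbols, and for BRG1 53.8% of 52, against 50.9%. Whether neighbouring peaks are parts of 1 broad site was not tested.

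Most BRG1 promoter sites of the group were shared with BRM and a minority with SNF5. Of the 66 peaks, 48 met a BRM peak with at least 1 bp (72.7%, 60.4 to 83.0), against 61.6% of all BRG1 promoter peaks. That 61.6% lay inside the interval. SNF5 met 25 (37.9%, 26.2 to 50.7), against 21.2%. All 25 that met SNF5 met BRM as well, as did 3972 of the 4065 such peaks among all BRG1 promoter peaks. In the group 23 (34.8%) met BRM only, against 41.0% of all, and 18 (27.3%) met neither, against 37.9%. With a reciprocal overlap of 50%, SNF5 met 0 of the 66. Widths fixed this 0, since each SNF5 peak of the group was under 50% as wide as the BRG1 promoter peak it met. At EEF1D such widths were 425 and 860 bp, and at EIF1 879 and 2050 bp. Among the 6489 widest peaks of each list SNF5 met 15 of 19 (78.9%). The share over all BRG1 promoter peaks was not computed for this cut, and wide promoter peaks met SNF5 often in general. Of all BRG1 promoter peaks of at least 1574 bp, 53.6% met SNF5 in its full list. In the other direction, BRG1 met 42 of 44 SNF5 peaks of the group (95.5%), against 96.1% of all SNF5 peaks, and 57 of 68 BRM peaks (83.8%, 72.9 to 91.6), against 92.2% of all BRM peaks. Of the 11 BRM peaks without BRG1, 4 were named for EEF1D and 2 for EEF2. Outside promoters BRM met 6 of 44 BRG1 peaks of the group (13.6%, 5.17 to 27.4), a lower share than the 20.2% of all such BRG1 peaks. SNF5 met 2 of the 44 (4.55%), against 2.69% of all.

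**Figure D4:**
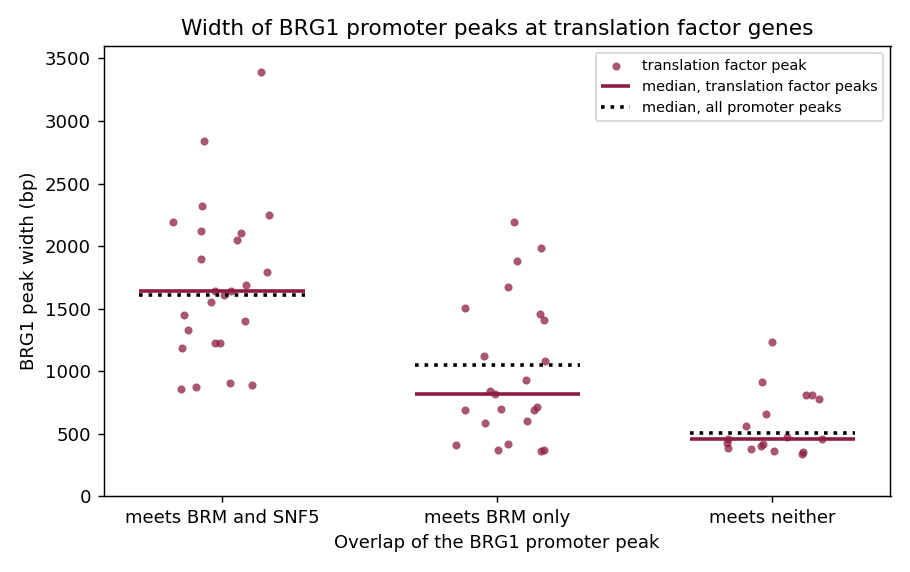
Width in bp (y axis) of the 66 BRG1 promoter peaks of the group, split by which other lists they meet (x axis); points are peaks, solid lines their medians and dotted lines the medians over all BRG1 promoter peaks of that kind. Peaks that meet BRM and SNF5 have a median of 1638 bp and those that meet neither 459 bp, close to the medians over all such promoter peaks (1610 and 503 bp).

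The shared peaks were the wide ones. The 25 peaks that met BRM and SNF5 had a median of 1638 bp (860 to 3392), the 23 that met BRM only 818 bp (365 to 2195) and the 18 that met neither 459 bp (336 to 1234). Over all BRG1 promoter peaks the same medians were 1610, 1050 and 503 bp. The 10 genes with the widest BRG1 peak were EIF3A, EIF5B, EIF4E, EIF4A2, EIF3M, EIF4G2, EIF2S2, EIF3J, EIF1 and EEF1B2, all at promoters, and all were named by BRM and 8 by SNF5. The median BRG1 promoter peak of the group was 908.5 bp wide, against 876 bp for all, its median BRM promoter peak 917 bp, against 638 bp, and its median SNF5 promoter peak 245 bp, against 218 bp. With all BRG1 promoter peaks split into 5 width classes of equal size, the widest class began at 1574 bp. There SNF5 met 14 of 18 peaks of the group and 53.6% of all, and BRM met 18 of 18 and 97.1%. In the narrowest classes, up to 461 bp and up to 712 bp, SNF5 met 0 of 14 and 0 of 9 peaks of the group, against 2.08% and 5.49% of all, shares at which so few peaks would hold 0 or 1.

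Promoter sequences (250 bases before to 50 from the RefSeq start, 1 start a gene) were at hand for 54 of the genes and 15843 protein-coding genes. The E-box CACGTG lay in 14 of 54 (25.9%), against 8.88% of all, among them EIF4E, EIF4G1, EIF4A3, EIF4B, EIF4H, EIF3F and EEF2K. A match to CCGGAAG, bound by ETS factors, lay in 13 (24.1%), against 14.2%, and the GC box GGGCGG in 40 (74.1%), against 58.5%. A C with at least 4 pyrimidines at the start was found in 23 (42.6%), against 33.8%. TATAAA was found in 2 (3.70%), against 9.63%, CCAAT in 22 (40.7%), against 36.4%, TGACGTCA in 1 (1.85%), against 2.59%, the YY1 motif in 2 (3.70%), against 1.93%, and the NRF1 motif in 0, against 1.75%. All motifs were read on both strands except the pyrimidine tract, and matches that overlap another motif were counted for each, as in EIF1, where the GC box and the tract share letters. Of the 27 genes with peaks of all 3 lists near the start, 7 held the E-box, 13 the pyrimidine tract and 16 the GC box, against 14, 23 and 40 of all 54. EEF1AKMT4 and EEF1AKMT4-ECE2 share 1 start and 1 promoter sequence, with an E-box, and are counted as 2 genes here and in the shares by start. The GC content had a median of 64.2% in the group and 62.7% in all promoters. A match is a description of letters and not of a bound factor.

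By nearest TSS, the 39 further genes of translation listed here were named at higher shares than the group. Peaks near their starts that carried another name were not counted. BRG1 named 77.6% of the group, 34 of 39 pathway genes outside the rule (87.2%) and 63.5% of all genes. BRM named 67.2% of the group, 34 of the 39 (87.2%), which is above the interval of the group, and 49.6% of all genes. SNF5 named 43.3% of the group, 21 of the 39 (53.8%) and 19.7% of all genes, and these differences were not tested. All 3 lists named 19 of the 39. SNF5 named 7 of 12 genes of signalling to translation and 1 of 6 of release and recycling (16.7%). BRG1 and BRM each named 4 of those 6 (66.7%), against 77.6% and 67.2% of the group. With 6 genes this class is too small to be set apart from the group. The pathway genes named by all 3 lists were the 4E-binding protein gene EIF4EBP2, the release factor gene ETF1, PABPC1, PAIP2, DHX29, LARP1, DENR, EEFSEC, SECISBP2, TSFM, MTIF2, MTIF3, MTOR, RPTOR, MKNK1, MKNK2, GCN1, PPP1R15A and PPP1R15B. EIF4EBP2 had a BRG1 peak of 2026 bp, a BRM peak of 911 bp and an SNF5 peak of 516 bp. EIF4EBP1 and EIF4EBP3 had BRG1 (709 and 1034 bp) and BRM (395 and 316 bp) without SNF5. LARP1, which binds TOP mRNAs, had 10 BRG1, 3 BRM and 2 SNF5 peaks.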

How the data were processed

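Chromatin immunoprecipitation was done by the authors in RWPE1 cells with SCHLAP1, per the labels' protocols, with 30 min of fixation stopped by 125 mM glycine. The submitters' processing notes name hg38 as build and Bowtie2, SAMtools, MACS2 and deepTools 2.5.2 as tools, with no role for any. The deposited lists, 1 for each subunit, give positions, widths and distances in bp, per the file headers, and no enrichment or read count. For the caller's settings, the filter and any pooling of the 2 samples of a group, the answer is not given in the sources used here, and no replicate spread exists. The 24 samples form 12 groups, of which the 3 with peak lists were used.

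Overlaps were counted with bedtools 2.31.1, and intervals (exact binomial, 95%) with scipy 1.17.1 under Python 3.11.15. Gene names were matched to RefSeq by symbol, or by a synonym that belongs to a single gene, within a chromosome. RefSeq starts and sequences are of GRCh38.p14. The routines were tested on simulated data. The members and gene lists were chosen with earlier results of these data known. Genes were named by a rule: all with SNF5, the 10 with the widest and 5 with the most BRG1 peaks, those without a peak (1 such gene is left unnamed), and those with BRG1 outside promoters only or without BRG1. Remaining members were named after their values were seen. Alternatives were other distances, overlaps, widths and gene sets.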

Additional observations from a re-analysis of the deposited data

How the results depend on the processing

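Of 41 values for 11 results under other settings, 23 lay within the 95% interval of the value reported and 18 outside. The share of genes with a peak was higher when a peak within 1 kb of a RefSeq start counted (BRG1 90.7%, BRM 79.6%), also when names counted as well (91% and 79.1%, a setting added after seeing the data). It was lower with the wider 50% of each list (BRG1 59.7%, BRM 52.2%, SNF5 28.4%) and with the 6489 widest peaks (BRG1 28.4%, BRM 46.3%). Promoters held 82.1% of the wider BRG1 and 95.5% of the wider BRM peaks. BRM met 54.5% of BRG1 promoter peaks with a reciprocal overlap of 50%, 83.3% within 1 kb, 89.1% of the wider and 84.2% of the widest. SNF5 met 54.3% of the wider and 78.9% of the widest, and 0% with the reciprocal overlap, which its narrow peaks could not reach. For these other overlap settings the shares over all BRG1 promoter peaks were not computed. The start setting covers 54 of the 67 genes and counts peaks named for neighbours; the reciprocal overlap takes the same 66 peaks; the other causes were not tested. Leaving out 1 of the samples was not possible, since each list stands for both. No paired analysis was possible because the lists carry no replicate numbers. The depth is unknown, and its part in genes left unnamed was not tested.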
